A study of Danio rerio with 4 samples.

Results

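The genes described are 10 markers of the brain's blood vessel lining and of the blood-brain barrier: kdrl, flt1, tie1, tek, cdh5, cldn5a, cldn5b, mfsd2aa, mfsd2ab and fli1a. They were taken by symbol from the authors' table of 32520 genes. Each symbol matched 1 row, and all 10 passed the filter that left 16522 genes, set at 1 CPM on average over the 4 libraries. CPM are counts divided by a scaled library total.

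Brain RNA of adult wild-type zebrafish was sequenced, with 1 library per group. The control library is from fish kept in 0.1% dimethyl sulfoxide, and the others are from fish given butylparaben, a preservative ester, at 0.01 mg/L (low dose), 0.1 mg/L (middle dose) or 1.0 mg/L (high dose). In the treatment labels dimethyl sulfoxide appears under the control alone, and the sources used here do not state the exact age, the sex or any pooling of animals. Conditions could not be tested against each other without replicates, so each difference is between libraries, and the 95% intervals cover counting error only. The series title names photosensitivity and memory as the study's subject, and the comparisons below ask how vessel genes stood at each dose against the control.

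Brain capillaries are lined by endothelial cells that are sealed to each other by tight junctions and carry nutrients by dedicated transporters. Growth factor signalling through VEGF and angiopoietin receptors maintains this lining, and Wnt ligands from neural cells induce its barrier properties. In whole-brain RNA the endothelium is a minor cell population. Fewer endothelial cells and less RNA per endothelial cell cannot be told apart in such bulk samples.

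Library totals lay between 9750590 (high dose) and 11099317 counts (control). The 6 neuronal markers summed to between 6199 and 6979 CPM in the 4 libraries, with snap25a and stmn2a highest by mean TPM. One library stood apart: the listed oocyte genes summed to 325 CPM in the control library, against 2.12, 1.09 and 0.295 CPM at the rising doses. Because that library is the reference of every comparison with the control, some comparisons between doses are given as well.

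By level per transcript length, in the authors' TPM, tek stood highest in every library. It ran from 10.65 to 13.24 TPM, above mfsd2ab at 7.96 to 10.25 TPM, and these ranges did not overlap. The VEGF receptor genes followed, flt1 at 6.19 to 8.05 TPM and kdrl at 5.56 to 6.38 TPM. The ranges of mfsd2ab and flt1 overlapped, as did those of flt1 and kdrl. Next came fli1a, with a mean of 3.88 and at most 4.60 TPM, and cdh5 at 2.84 to 3.76 TPM, again with overlapping ranges. The lowest mean levels were those of mfsd2aa (1.86 to 3.46 TPM), tie1 (0.75 to 2.36 TPM), cldn5b (0.35 to 2.95 TPM) and cldn5a (0.95 to 2.02 TPM), whose ranges overlapped each other. At the high dose mfsd2aa and cldn5b stood above cdh5, whose range those of both overlapped. Of all genes passing the filter, 64.2% had a lower mean TPM than tek, 47.3% a lower one than kdrl and 15.8% a lower one than cldn5a.

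**Figure D1:**
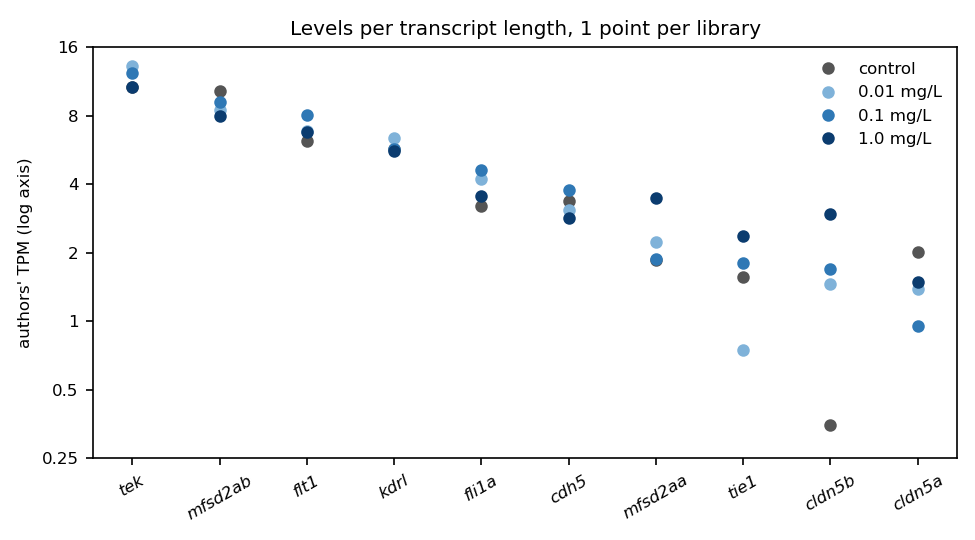
Level of each gene in the authors' TPM (log axis), ordered by mean level, with 1 point per library (grey control, light to dark blue for rising dose). tek is highest in all 4 libraries, and cldn5b has the widest range, from 0.35 TPM in the control to 2.95 TPM at 1.0 mg/L.

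A gene was called higher or lower where log2(CPM + 0.5) differed by at least 1 and the exact 95% interval of the CPM ratio excluded 1. Of the 10 genes, 1 was called at each dose, and it was cldn5b, higher each time. Among all 16522 genes, 2.15% were called higher at the low dose, 2.43% at the middle dose and 2.68% at the high dose, and 0.611% at all 3 doses, with 1.08% lower at all 3. Among the 5258 genes with a mean of 1 to 5 CPM, the range that holds cldn5b, the shares called higher were 4.75%, 5.0% and 5.8%. The share of genes called lower was 2.41%, 2.95% and 2.74%, and no member was called lower. The median log2 ratio of the 10 genes was 0.31 at the low dose, 0.11 at the middle dose and -0.02 at the high dose, beside -0.01, 0.00 and 0.00 over all genes tested. The sign of the median at the high dose turned under other scalings, with 0.02 by library totals and 0.06 in the authors' TPM. The median of all genes tested moved with it, to 0.04 and 0.08, and the members' median stayed below it. Summed over the 10 genes, the control library held 144 CPM, against 167, 151 and 137 CPM at the rising doses. The summed ratio to the control was 1.16 at the low dose (interval 1.08 to 1.24), 1.05 at the middle dose (0.976 to 1.12) and 0.949 at the high dose (0.883 to 1.02). Between doses the summed ratio was 0.907 for the middle against the low (0.844 to 0.973). It was 0.822 for the high against the low (0.764 to 0.884) and 0.906 for the high against the middle (0.842 to 0.975). Summed over all genes tested, the ratio to the control was 1.09, 0.994 and 0.970 at the rising doses. Between doses that ratio was 0.915, 0.893 and 0.976, in the same order. Such sums move with the scaling factor of each library, so the members' sums are to be read beside them. At the high against the low dose the interval lay below 1 for 4 of the 10 genes and above it for 1. Of the 16522 genes tested it lay below 1 for 2434 and above it for 2466.

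**Figure D2:**
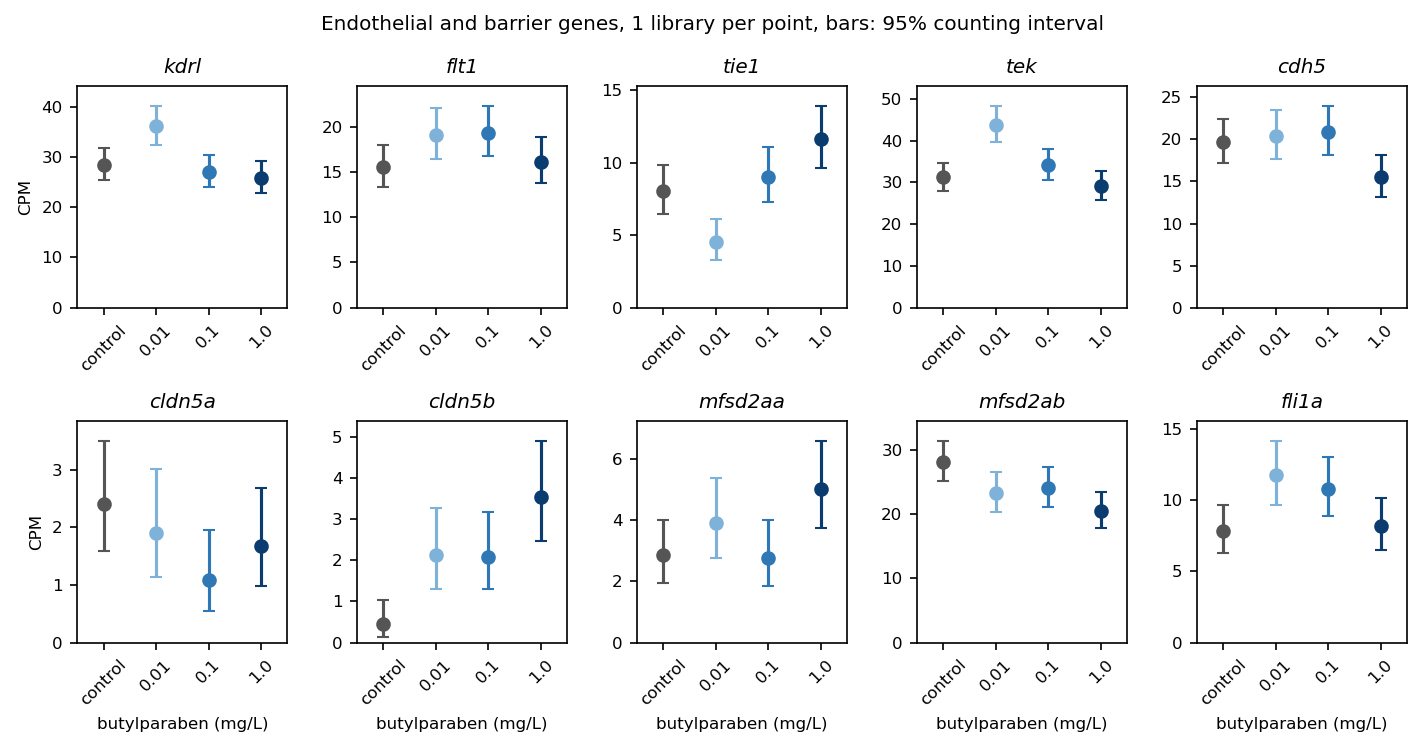
CPM of the 10 genes in the 4 libraries (x axis: butylparaben in mg/L), with 1 point per library and the exact 95% counting interval as bars; each panel has its own linear axis from 0. cldn5b is lowest in the control at 0.445 CPM, tie1 is lowest at 0.01 mg/L at 4.55 CPM, and kdrl and tek are highest at 0.01 mg/L.

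The tight junction genes of the list are cldn5a and cldn5b, which code for claudins, membrane proteins that close the space between neighbouring cells. cldn5b (ENSDARG00000014059) lies on the plus strand of chromosome 10, from 43994471 to 43996117, in the authors' GRCz11 coordinates. It had 5 counts in the control (0.445 CPM), 20 at the low dose (2.12 CPM), 21 at the middle dose (2.08 CPM) and 36 at the high dose (3.54 CPM). The control was thus the lowest library, and its counting interval, 0.145 to 1.04 CPM, did not overlap that of any dose. The ratio to the control was 4.75 at the low dose (interval 1.73 to 16.2), 4.68 at the middle dose (1.72 to 15.9) and 7.95 at the high dose (3.11 to 25.95). These ratios share the 5 counts of the control and are not 3 separate observations. Among the doses, the ratio of the high to the low dose was 1.67 (interval 0.942 to 3.05) and that of the middle to the low dose was 0.984 (0.507 to 1.91), so no order among the doses was detectable at this depth. The difference across the 4 libraries, on the log2(CPM + 0.5) scale, was larger for cldn5b than for 98.1% of all genes tested. That rank is over genes of all levels, and counting error is larger at counts as low as those of cldn5b. The oocyte genes were high in the same library in which cldn5b was low, and the part of that library's makeup in the cldn5b ratio was not tested. In the authors' deposited table cldn5b was marked as changed at all 3 doses, with log2 fold changes of 2.25, 2.23 and 2.99, and no other member was marked at any dose. The authors' q-value for cldn5b, which allows for the number of genes tested, was far larger at the low and middle doses than at the high dose. The mark is thus weaker at those 2 doses, where the q-value was above the cuts in common use. That table marks 3.96%, 4.28% and 4.29% of its 32520 genes at the rising doses, also from 1 library per group.

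Its paralog cldn5a (ENSDARG00000043716, chromosome 8, 4697764 to 4699320, plus strand) went the other way in value. It had 27 counts in the control, 18 at the low dose, 11 at the middle dose and 17 at the high dose, or 2.405, 1.91, 1.09 and 1.67 CPM. The control was the highest library, and the counting intervals of all 4 libraries overlapped. The ratio was 0.454 at the middle dose (interval 0.203 to 0.945), and at the low and high doses the interval held 1 (0.411 to 1.49, and 0.355 to 1.32). With a pseudocount of 0.1 CPM, cldn5a at the middle dose passed the size rule as lower, at a log2 ratio of -1.07.

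Within a library, cldn5b made up 15.6% of the counts of the claudin pair in the control (5 of 32, exact binomial interval 5.28 to 32.8%). That share was 52.6% at the low dose (35.8 to 69.02%), 65.6% at the middle dose (46.8 to 81.4%) and 67.9% at the high dose (53.7 to 80.1%). This share does not depend on how libraries were scaled, and the interval of the control lay below those of all 3 doses. In the authors' TPM, which allow for transcript length, the share was 14.8% in the control library, against 51.1%, 64.2% and 66.6% at the doses. The pair was set side by side after its values were seen. Reads common to similar transcripts were divided by estimation upstream, so the split between paralogs carries that uncertainty too.

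**Figure D3:**
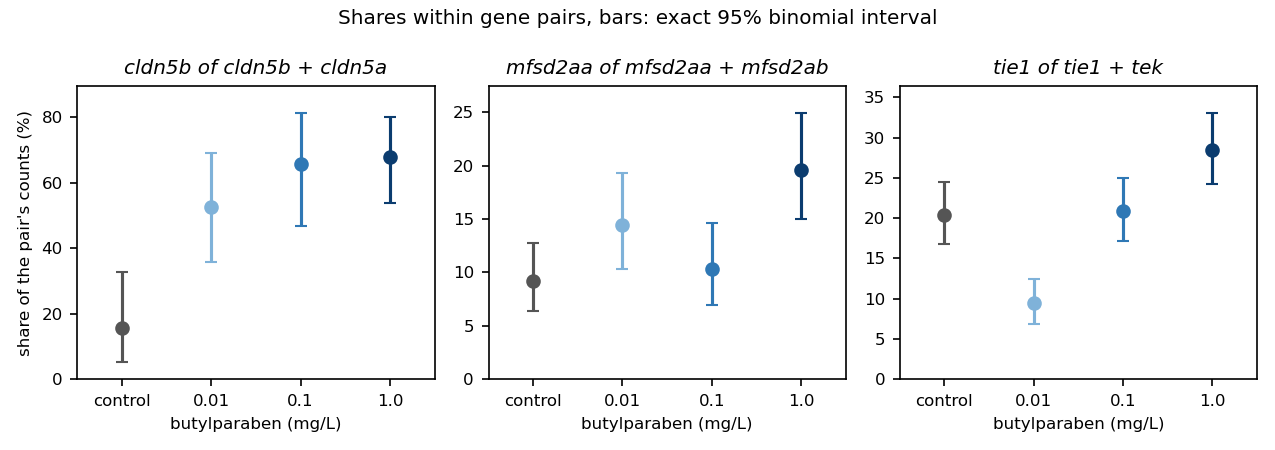
Share of the first gene in the summed counts of 3 gene pairs (y axis, percent) by library (x axis, butylparaben in mg/L), with exact 95% binomial intervals as bars. Each panel has its own axis from 0. The pair of flt1 and kdrl, whose intervals overlapped, was also computed and is given in the text only. The cldn5b share is 15.6% in the control and 52.6 to 67.9% at the doses, the mfsd2aa share is highest at 1.0 mg/L at 19.6%, and the tie1 share is lowest at 0.01 mg/L at 9.41%.

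The angiopoietin receptor system is represented by tek, the tyrosine kinase that binds angiopoietins, and tie1, a related kinase that modulates it. tie1 (ENSDARG00000004105, chromosome 6, 33979523 to 34008901, minus strand) had 90 counts in the control (8.02 CPM), 43 at the low dose (4.55 CPM), 91 at the middle dose (9.02 CPM) and 118 at the high dose (11.6 CPM). The low-dose library was the lowest, with a counting interval of 3.29 to 6.13 CPM that lay below those of the other libraries. Against the control its ratio was 0.568 at the low dose (interval 0.385 to 0.825) and 1.45 at the high dose (1.09 to 1.93), both under the 2-fold rule. Between doses, tie1 was 2.55-fold higher at the high than at the low dose (interval 1.78 to 3.70). This was the only call among the 30 comparisons of a member between 2 doses, where 1.85% of all genes were called higher and 1.54% lower in that pair of libraries. The shares were 1.71% and 1.65% for the middle against the low dose, and 1.91% and 1.35% for the high against the middle dose. At the middle against the low dose the ratio was 1.98 (interval 1.37 to 2.92), just under the rule.

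tek (ENSDARG00000028663, chromosome 5, 480119 to 496781, plus strand) was highest where tie1 was lowest. It had 350 counts in the control (31.2 CPM), 414 at the low dose (43.8 CPM), 344 at the middle dose (34.1 CPM) and 296 at the high dose (29.1 CPM). Its ratio to the control was 1.41 at the low dose (interval 1.22 to 1.63), and the intervals at the other doses held 1. The interval of the low-dose library, 39.7 to 48.3 CPM, overlapped that of no other library. For tek the ratio of the high to the low dose was 0.664 (interval 0.570 to 0.773). In the counts of tek and tie1 together, tie1 made up 20.5% in the control (interval 16.8 to 24.5%), 9.41% at the low dose (6.89 to 12.5%), 20.9% at the middle dose (17.2 to 25.05%) and 28.5% at the high dose (24.2 to 33.1%). This pair, too, was chosen after its values were seen.

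The VEGF receptor genes among the 10 are kdrl and flt1. kdrl codes for the main signalling receptor of zebrafish endothelium, and the product of flt1 binds VEGF and can act as a decoy. kdrl (ENSDARG00000105215, chromosome 14, 32983769 to 33044955, minus strand) had 319 counts in the control (28.4 CPM), 341 at the low dose (36.1 CPM), 273 at the middle dose (27.1 CPM) and 263 at the high dose (25.9 CPM). Like tek it was highest at the low dose, at 1.27 times the control (interval 1.09 to 1.49), and the intervals at the other doses held 1. For kdrl the ratio of the high to the low dose was 0.716 (interval 0.608 to 0.844). flt1 (ENSDARG00000019371, chromosome 24, 21750810 to 21808819, minus strand) had 174, 180, 195 and 164 counts, or 15.5, 19.1, 19.3 and 16.1 CPM from control to high dose. Its 4 counting intervals overlapped, and its ratio reached at most 1.25, at the middle dose (interval 1.01 to 1.54). On the log2(CPM + 0.5) scale flt1 had the narrowest range of the 10 genes over the libraries, 0.31. Of the pair's counts flt1 made up 35.3% in the control (31.1 to 39.7%) and 34.5% at the low dose (30.5 to 38.8%). Its share was 41.7% at the middle dose (37.2 to 46.3%) and 38.4% at the high dose (33.8 to 43.2%), and these intervals overlapped.

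cdh5 (ENSDARG00000075549, chromosome 7, 44445595 to 44471544, plus strand) codes for VE-cadherin, the adhesion protein of endothelial adherens junctions. It had 221 counts in the control (19.7 CPM), 193 at the low dose (20.4 CPM), 211 at the middle dose (20.9 CPM) and 158 at the high dose (15.5 CPM). The high-dose library was the lowest, at 0.789 of the control (interval 0.639 to 0.972). For cdh5 the ratio of the high to the low dose was 0.760 (interval 0.612 to 0.943). The transcription factor gene fli1a (ENSDARG00000054632, chromosome 18, 48423973 to 48487875, plus strand), an ETS family member that marks endothelium, had 88, 111, 109 and 83 counts, or 7.84, 11.75, 10.8 and 8.16 CPM. Its ratio to the control was 1.499 at the low dose (interval 1.12 to 2.01), 1.38 at the middle dose (1.03 to 1.85) and 1.04 at the high dose (0.762 to 1.42). The lower doses were thus the higher libraries for fli1a, under 2-fold. Its ratio of the high to the low dose was 0.695 (interval 0.516 to 0.931).

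The paralogs mfsd2aa and mfsd2ab are zebrafish orthologs of Mfsd2a, which in mice is a lipid transporter of brain endothelium that limits transcytosis. mfsd2ab (ENSDARG00000035909, chromosome 19, 30867845 to 30884054, plus strand) had 316 counts in the control (28.1 CPM), 220 at the low dose (23.3 CPM), 243 at the middle dose (24.1 CPM) and 209 at the high dose (20.6 CPM). The control was the highest library, and the ratio at the high dose was 0.73 (interval 0.610 to 0.872). mfsd2aa (ENSDARG00000030630, chromosome 13, 35925490 to 35953596, plus strand) had 32 counts in the control (2.85 CPM), 37 at the low dose (3.92 CPM), 28 at the middle dose (2.78 CPM) and 51 at the high dose (5.02 CPM). The high-dose library was the highest, at 1.76 times the control (interval 1.11 to 2.83). The paralogs therefore stood on opposite sides of the control at the high dose, each under 2-fold. The share of mfsd2aa in the pair's counts was 9.2% in the control (interval 6.38 to 12.7%), 14.4% at the low dose (10.3 to 19.3%), 10.3% at the middle dose (6.98 to 14.6%) and 19.6% at the high dose (14.97 to 24.97%). Only at the high dose did the interval lie wholly above that of the control.

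**Figure D4:**
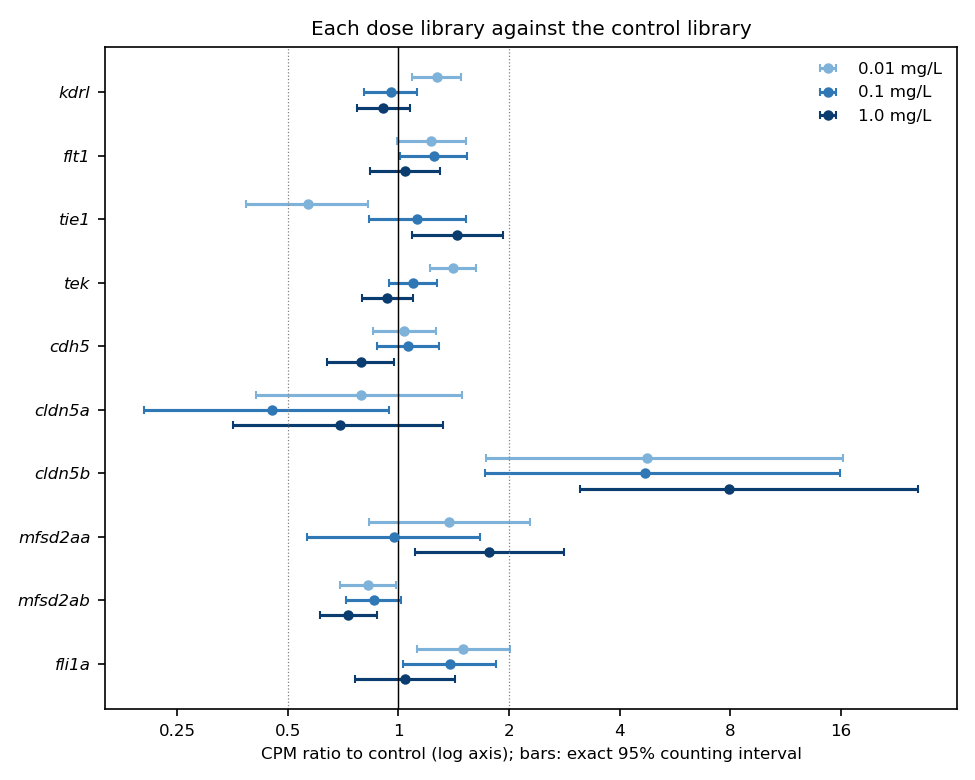
Ratio of CPM in each dose library to the control library (log axis) for the 10 genes, with exact 95% counting intervals as bars; dotted lines mark 2-fold. cldn5b lies at 4.68 to 7.95 and is the only gene past the rule, while the ratios of the other genes lie between 0.454 and 1.76.

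For mfsd2ab the authors' estimates gave transcripts of a different mean length in 1 library. The count of a gene divided by its TPM is proportional to the mean length of the transcripts assigned to it, once libraries are aligned. They were aligned on the 2693 genes with 1 annotated transcript and at least 100 counts and 1 TPM in every library. In those genes the central 95% of that relative length lay between 0.993 and 1.04 at the low dose. For mfsd2ab, which has 2 annotated transcripts, it was 0.873 at the low dose and 0.997 at the middle and high doses. Of 5315 genes with several transcripts and the same minimum counts and TPM, 8.18% moved by over 10% at the low dose. flt1, also with 2 annotated transcripts, was just outside the central range at the low dose, at 0.975. In the other 8 members it lay between 0.992 and 1.04 at all doses. Of these, tek and cdh5 at the middle dose and kdrl at the high dose were just below the central range of that dose.

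Across the doses, flt1, cldn5b and fli1a were above the control at all 3, and cldn5a and mfsd2ab were below it at all 3. Of all genes, 27.2% were above and 27.6% below at all 3 doses, and these comparisons share the control. No member was higher, or lower, in each library than in the one before it in dose, which 6.09% and 5.82% of all genes were. In the 27 of 30 comparisons with the control that were not called, 12 had an interval that excluded 1. The interval excluded 1 on the higher side for 4, 3 and 3 of the 10 genes at the rising doses, where 14.3%, 19.2% and 18.8% of all genes did so, and on the lower side for 2, 1 and 2, where 15.3%, 16.8% and 18.7% did so. The genes whose log2 ratios lay nearest to the medians of the 10 at all 3 doses, of 11250 with a mean of at least 5 CPM, were si:ch73-109d9.1, smurf1, chmp1a, cyb5r3 and tbc1d30, with largest differences of 0.03 to 0.05. Likeness over 3 ratios that share 1 control is weak.

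Other genes of vessels were read from lists, in which the most abundant genes are those of highest mean TPM. Of all 16522 genes tested, 8489, 8194 and 8241 were below the control in value at the rising doses, beside which the counts of list genes below it are to be read. Of 28 matched symbols of endothelial identity, 22 were measured and none was called at any dose. Their median log2 ratio was 0.02 at the low dose, 0.04 at the middle dose and -0.22 at the high dose, and their summed CPM was 0.839 of the control at the high dose (interval 0.800 to 0.879). The interval excluded 1 on the higher side for 9, 4 and 3 of the 22 at the rising doses and on the lower side for 5, 4 and 9. robo4, named outside the rule for named genes, came just short of a call. Its CPM ratio was 0.489 at the low dose and 0.485 at the high dose, with log2 ratios of -0.976 and -0.985. The list's most abundant genes per length were tal1, at 59.5 CPM in the control library, against 41.2, 50.3 and 36.4 CPM at the doses, and sox7, at 26.8, 34.9, 27.3 and 24.3 CPM. The sum leans on tal1, which had the list's highest CPM in every library. Whether the listed genes were read from endothelium alone was not tested. Red blood cell genes, too, were lowest in the high-dose library. There all 9 measured rows were below the control, with a summed ratio of 0.747 (interval 0.720 to 0.775) and none called. Their most abundant rows were hbaa1, with 181 CPM in the control library, against 118 CPM at the high dose, and the higher of the hbba1 rows, with 228 and 180 CPM. When the libraries were scaled to the summed endothelial identity genes, an alternative chosen after seeing the data, cldn5b was at log2 ratios of 1.43, 1.42 and 2.30, still called at each dose. That scaling moved all genes alike, and put the median of all genes at 0.24 at the high dose. Under it kdrl and tek at the high dose, both below that median, went from -0.13 and -0.10 to 0.12 and 0.15, while cdh5 and mfsd2ab came to -0.09 and -0.20.

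Of the barrier's junction list, 14 of 21 genes were measured, with 0 called higher at any dose and 1, 1 and 0 called lower. The cytoplasmic scaffold gene tjp2a had 132 counts in the control (11.8 CPM), 62 at the low dose (6.56 CPM), 46 at the middle dose (4.56 CPM) and 58 at the high dose (5.70 CPM). All 3 doses were below the control, with a call at the middle dose, where it was 2.58-fold lower. The cingulin gene cgnb was called lower at the low dose, at 17 counts against 51, and had 25 and 52 counts at the next doses. The most abundant members, ctnnb1, which codes for beta-catenin, and tjp1a were at 533 and 226 CPM in the control library, against 439 and 220 CPM at the high dose. For tjp1a the interval at the high dose held 1, and the middle dose was higher, at 248 CPM. Its paralog tjp1b had 176 CPM in the control library, against 204, 239 and 204 CPM at the doses, each with an interval above 1. Above the control were 7, 7 and 5 of the 14 genes at the rising doses, with 7, 7 and 9 below. Median log2 ratios of this list were -0.006, -0.04 and -0.06. Intervals excluded 1 on the higher side for 4, 3 and 1 genes and on the lower side for 4, 5 and 3. These junction genes are also expressed in neural and epithelial cells.

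Barrier transporters were measured for 16 of 22 listed genes, with 0 called higher at any dose and 0, 0 and 1 called lower. The called gene was slc2a1a, of the GLUT family that brings glucose across the barrier. It had 83 counts in the control (7.39 CPM), 56 at the low dose (5.93 CPM), 39 at the middle dose (3.87 CPM) and 29 at the high dose (2.85 CPM). Each library was below the one before it in dose, as for 5.82% of all genes. The ratio at the high dose was 0.386 (interval 0.244 to 0.595). Of the 16 measured genes, 10, 9 and 11 were above the control at the rising doses and 6, 7 and 5 below. The list's median log2 ratio was 0.06, 0.03 and 0.12. The interval excluded 1 on the higher side for 3 of them at each dose and on the lower side for 1. The list's most abundant genes were abcc5, an efflux transporter, at 533 CPM in the control library, against 628 CPM at the high dose, and slc3a2b, the heavy chain of an amino acid exchanger, at 50.4 and 59.1 CPM. Both are also expressed outside vessels.

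The gene plvapb codes for the diaphragm protein of fenestrated endothelium, the vessel type that lacks a barrier. It had 18 counts in the control (1.60 CPM), 30 at the low dose (3.18 CPM), 36 at the middle dose (3.57 CPM) and 49 at the high dose (4.82 CPM). Each library was above the one before it in dose, as for 6.09% of all genes. At the high dose plvapb was called, at 3.01-fold (interval 1.72 to 5.48). There 2.68% of all genes were called higher, and 5.8% of those with a mean of 1 to 5 CPM, the range that holds plvapb. Its ratios to the control share the 18 counts of that library. Its paralog plvapa was below the filter, with 3, 5, 5 and 9 counts.

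In VEGF and angiopoietin signalling, 12 of 18 matched genes were measured, with 10, 8 and 11 below the control at the rising doses and 2, 0 and 1 called lower. The VEGF co-receptor gene nrp1a, also used in axon guidance, had 329 counts in the control (29.3 CPM) and 134, 166 and 121 at the doses (14.2, 16.5 and 11.9 CPM), called at the low and high doses. The lymphatic growth factor gene vegfc had 37 counts in the control library, against 12, 22 and 18 at the doses, called at the low dose. The further VEGF receptor genes kdr and flt4, named outside the rule for named genes, were not called. kdr had 33 counts in the control library, against 21, 17 and 13 at the doses, with a high-dose ratio of 0.435 (interval 0.210 to 0.849). flt4 had 14 counts, against 4, 16 and 10. The most abundant genes were vegfab, a main VEGF ligand, at 46.7 CPM in the control library, against 34.4 CPM at the high dose, and nrp2b, at 50.7 and 50.2 CPM. Of all genes tested, 2.41%, 2.95% and 2.74% were called lower at the rising doses. The list's median log2 ratio to the control was -0.23, -0.26 and -0.20. Between doses this median was 0.03 for the middle against the low dose and 0.0006 for the high against the low. It was -0.26 for the high against the middle dose. The part of the control library's makeup in the ratios to the control was not tested.

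The Wnt list, with the ligands and the co-receptor genes that induce the barrier, had 12 of 14 genes measured and medians of -0.17, -0.37 and -0.34. The Wnt transcription factor gene lef1 had 946 counts in the control (84.3 CPM) and 682, 637 and 538 at the doses (72.2, 63.2 and 52.9 CPM). The Wnt target gene axin2 had 76.7 CPM in the control library, against 53.4, 57.1 and 47.99 CPM at the doses. Both were below the control in every dose library, with intervals that excluded 1, and under 2-fold. Whether lef1 and axin2 were read from endothelium was not tested. Of the 12 measured genes, 2, 3 and 5 were above the control at the rising doses and 10, 9 and 7 below. The interval excluded 1 on the higher side for 1, 1 and 3 of them and on the lower side for 2, 4 and 3. Between doses the list's median log2 ratio was -0.20 for the middle against the low dose. It was -0.12 for the high against the low and 0.06 for the high against the middle. The part of the control library's makeup in the ratios to the control was not tested. Called were apcdd1l, lower at the middle dose at 5 counts against 29, and the ligand gene wnt7ba, higher at the high dose at 26 counts against 9. The co-receptor gene adgra2 was below the filter, with 10, 1, 3 and 2 counts, and is named outside the rule for named genes, for its role in the pathway.

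Pericyte and smooth muscle genes, which mark the cells wrapped around vessels, were measured for 15 of 18 listed genes, with medians of 0.31, 0.05 and 0.02. One was called, foxf2a, a transcription factor of brain pericytes, higher at the middle dose with 34 counts against 12. Among the most abundant, rgs5b had 15.1 CPM in the control library, against 20.3 CPM at the high dose, and ndufa4l2a 16.7 and 12.7 CPM. At the low dose the median of the pericyte list was as high as that of the 10 endothelial genes, 0.31. Of the lymphatic and perithelial list, 4 of 7 genes were measured. The scavenger receptor gene stab1, also known from macrophages, was called higher at the low and middle doses, with 14 counts in the control library, against 34, 46 and 30 at the doses. The most abundant, prox1a and stab2, had 17.4 and 7.93 CPM in the control library, against 18.4 and 12.1 CPM at the high dose. Neither was called, and the stab2 ratio at the high dose was 1.53 (interval 1.15 to 2.03).

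**Figure D5:**
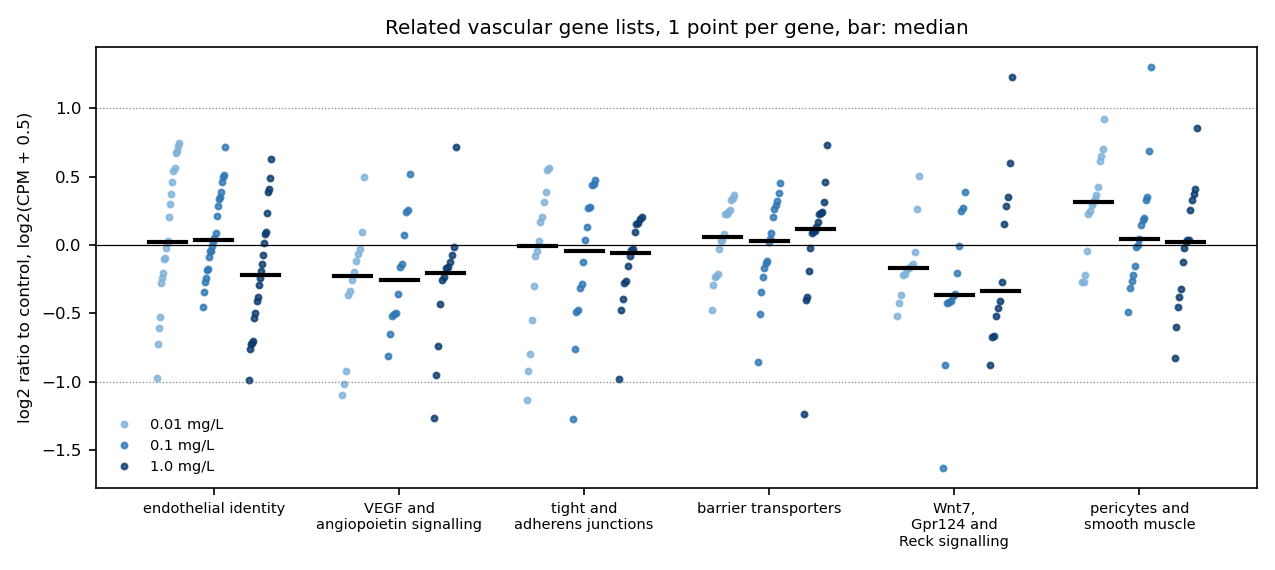
Log2 ratio to the control, on the log2(CPM + 0.5) scale, of the measured genes of 6 vascular lists at 0.01, 0.1 and 1.0 mg/L (light to dark blue), with 1 point per gene and the list median as a black bar; dotted lines mark 2-fold. Medians of the Wnt list lie at -0.17 to -0.37 and those of the VEGF list at -0.20 to -0.26, and few genes lie beyond 2-fold.

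Of the other cell types in the tissue, meningeal genes had 5 of 8 measured with col5a1 called lower at the high dose (63 counts against 166). Its most abundant genes, the matrix genes dcn and col1a1b, had 22.4 and 18.3 CPM in the control library, against 32.5 and 29.4 CPM at the high dose. Choroid plexus genes had 4 of 5 measured with foxj1a, a cilia factor shared with the ependyma, called lower at the low dose (18 counts against 87), and otx2b and clic6 as the most abundant. Radial glia genes, of which s100b and fabp7a were highest by mean TPM, summed to 2582 CPM in the control library, against 1901, 2059 and 2240 CPM at the doses, and microglia genes, with cd74a and apoeb highest by mean TPM, to 355 CPM, against 417, 427 and 371 CPM, with none called in either list. The part of these shifts in cell markers in the values of the 10 genes was not tested.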

How the data were processed

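Per the labels' protocols, libraries were made with a stranded mRNA kit and read as 151 bp paired ends. The build GRCz11 and the programs RSEM 1.3.1, STAR 2.7.1a and cutadapt 2.8 are named per the submitters' processing notes, with no order. The authors deposited 1 table with, per the file headers, an estimated count (expected count), an RPKM and a TPM per gene and library, and for each dose their own q-value, p-value and log2 fold change. The deposited counts are whole numbers, taken as RSEM's expected counts made whole. No sample column of another series was found.

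Counts were scaled by the TMM method (R 4.3.3, edgeR 4.0.16) with factors of 1.01, 0.931, 1.02 and 1.04 from control to 1.0 mg/L. Ratios used log2(CPM + 0.5), which understates low genes, while folds are ratios of CPM. Intervals of ratios are Clopper-Pearson, conditional on both counts, and those of CPM are exact Poisson intervals. Reads without molecular identifiers are not independent molecules, so intervals cover counting error only. The size rule was run on simulated counts that held counting error alone. That run cannot tell how the rule behaves with differences between fish or libraries. Genes named from further lists were those called at any dose and the 2 of highest TPM, besides those marked as outside that rule. Of the listed symbols, 5 matched no row. The members and lists were chosen with earlier results of these data known. Alternatives used DESeq2 1.42.0 size factors, library totals, other filters and pseudocounts, the authors' TPM and RPKM, and thinning. Python 3.11.15 ran the rest, with matplotlib 3.10.9, scipy 1.17.1, pandas 2.3.3 and numpy 2.4.6.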

Additional observations from a re-analysis of the deposited data

How the results depend on the processing

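No paired analysis was possible because each group held 1 library. The call of cldn5b rests on low counts. With a pseudocount of 2 CPM the number of members called went from 1 to 0 at 0.01 and 0.1 mg/L (cldn5b log2 ratios 0.75 and 0.74), and with a mean of at least 5 CPM, which removes cldn5b, it was 0 at each dose. With a pseudocount of 0.1 CPM it was 2 at 0.1 mg/L, where cldn5a was added. With the other doses as the reference and the control library left out, the number called was 1 at 0.01 mg/L (tie1, lower) and 0 at 0.1 and 1.0 mg/L. Over all settings against the control the log2 ratio of cldn5b ran from 0.75 to 2.02, from 0.74 to 2.001 and from 1.18 to 2.74 at the rising doses. The median of the members ran from 0.14 to 0.33, from 0.07 to 0.15 and from -0.10 to 0.22, the last with no fixed sign. The value of 0.22 came from scaling to endothelial identity genes, which put the median of all genes at 0.24. The median of all genes at 0.01 mg/L was -0.12 by library totals and -0.19 in the authors' TPM, beside -0.01 as reported. Of 321 values of single genes under the alternatives, 315 kept their label. For a called gene that means it stayed called, and its interval was not checked. A gene not called stayed so and within its counting interval. With a pseudocount of 2 CPM, cldn5b at 1.0 mg/L stayed called at a log2 ratio of 1.18, below the interval of its ratio. The other filters only select genes and could not change these values. The setting without the control library is not among the 321.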
